A study of Homo sapiens with 6 samples.

Results

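The nuclear genes for mitochondrial ribosomal proteins were read in 6 RNA-seq libraries. All were made from HCT116, a long-established line of human colorectal carcinoma. They were taken by symbol, as every gene whose name starts with MRPL or MRPS followed by a digit, which gave 78 of the 19942 gene symbols in the deposited tables. Of these, 49 carry an MRPL symbol and 29 an MRPS symbol. The libraries are 5-FU resistant and parental cells, each with EHMT2 siRNA, with control siRNA, or untransfected, with 1 library in each of the 6 groups. 5-Fluorouracil (5-FU) is a pyrimidine analogue used against colorectal cancer, and EHMT2 encodes G9a, a methyltransferase of histone H3 lysine 9. All groups share the HCT116 background, and the labels do not say how the resistance was raised or how long after transfection the cells were taken. Each library comes as FPKM, a read density scaled for transcript length and library size, without read counts, so its depth is unknown. With 1 library in a group there is no replicate check on any single pair of libraries.

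Mitochondria carry their own ribosome, which translates the few messages of mitochondrial DNA, all of them for subunits of the respiratory chain and ATP synthase. Its RNA comes from mitochondrial DNA, but every protein of it is encoded in the nucleus, made on cytosolic ribosomes and imported. Many of these proteins descend from bacterial ribosomal proteins and sit around the decoding and peptidyl transferase centres, while others exist only in mitochondria and lie mostly on the outer surface. By textbook assignment, 51 of the members belong to the large subunit and 26 to the small subunit. MRPS30 and MRPS18A are among the 51 although their symbols name the small subunit. MRPS36 is now placed in the oxoglutarate dehydrogenase complex and counted in neither. A bacterial homologue was assigned to 46 members, and 29 were taken as mitochondria-specific; MRPS18A, MRPS18B and MRPS36 were kept apart.

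The targeted gene had 3.804 FPKM in resistant and 8.58 FPKM in parental cells with EHMT2 siRNA, against 19.5 and 31.7 FPKM with control siRNA and 27.3 and 19.8 FPKM untransfected. Summed FPKM per library was 360729.7 to 446164.9, and 11245 to 11730 genes per library reached 1 FPKM. Of 8 markers of colorectal epithelium, 7 were at 1 FPKM or more in every library and VIL1 was listed at 0. None of 4 leukocyte and none of 3 endothelial markers reached 1 FPKM, and of 4 fibroblast markers only COL1A1 did, at 3.35 to 9.79 FPKM. The untransfected pair stood apart from the transfected pairs in the comparison of the lines. Over all expressed genes, the resistant over parental ratios of the untransfected pair had a Pearson correlation of −0.17 with those of the control siRNA pair (n = 11386 genes), whereas the control siRNA and EHMT2 siRNA pairs correlated at 0.64 (n = 11341 genes). A gene of mitoribosome assembly shows the same. AFG3L2 encodes a subunit of the m-AAA protease, which in yeast and mouse matures the MRPL32 protein, and had 66.3 FPKM in untransfected resistant cells and 20.8 to 24.2 FPKM in the other 5 libraries. Each comparison of the lines is therefore given by treatment, and what sets the untransfected pair apart was not tested.

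All 78 members were expressed throughout. Each had at least 1 FPKM in every library, and 76 had at least 5 FPKM, with a range over genes and libraries of 4.19 to 102 FPKM. The median member lay at the 83.2nd percentile of mean FPKM among genes at 1 FPKM or more in any library. The highest mean levels were those of MRPL51, a mitochondria-specific protein, at 77.1 FPKM and of MRPL12, the stalk protein that recruits translation factors, at 70.3 FPKM. MRPS34, mitochondria-specific and needed for stable small-subunit RNA, averaged 69.3 FPKM, and MRPL33, homologue of bacterial L33, 67.5 FPKM. MRPL43 and MRPL18 followed at 58.9 and 56.2 FPKM. The lowest were MRPS14 at 5.82 FPKM, MRPL50 at 5.99 FPKM, MRPL19 at 8.02 FPKM, MRPS25 at 9.02 FPKM, MRPL22 at 9.53 FPKM and MRPS11 at 9.98 FPKM. The proteins stand in the ribosome once each apart from MRPL12, but their messages thus covered more than a 10-fold range. MRPL12 shares 68.2%, MRPL43 30.4% and MRPL51 29.9% of its exonic bases with other genes in GENCODE 29, so part of their reads could have been counted for a neighbour.

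In FPKM as deposited, the summed message of the set hardly moved between the libraries. It was 2451.1 FPKM in resistant and 2275.0 FPKM in parental cells with EHMT2 siRNA, 2356.2 and 2395.4 FPKM with control siRNA, and 2360.2 and 2365.5 FPKM untransfected. The lowest and the highest sum are the 2 EHMT2 siRNA libraries. This depends on scaling, because the libraries differ in total FPKM. As a share of all FPKM the set was lowest in untransfected parental cells, at 0.53%, against 0.627% in untransfected resistant cells. It was highest in resistant cells with EHMT2 siRNA, at 0.661%. Ribosomal proteins of the cytosol and the messages that mitoribosomes translate ranged far more widely. The 83 cytosolic ribosomal protein genes summed to 43097.0 FPKM in resistant and 32474.2 FPKM in parental cells with EHMT2 siRNA, 71603.0 and 47264.9 FPKM with control siRNA, and 35659.6 and 70371.8 FPKM untransfected. The 13 messages of mitochondrial DNA summed to 45816.7 and 65036.4 FPKM with EHMT2 siRNA, 37716.8 and 86568.7 FPKM with control siRNA, and 67622.5 and 116956.0 FPKM untransfected, in resistant and parental cells in that order. In each treatment the summed mitochondrial DNA messages were lower in resistant cells. The sum of the nuclear set, in FPKM as deposited, differed little between the lines. MT-ND5 and MT-ND6, for subunits of complex I, were exceptions in the untransfected pair, with log2 ratios of 0.30 and 0.48 for resistant over parental cells. In bulk RNA, a change in message per cell and a change in the make-up of the culture cannot be told apart.

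**Figure D1:**
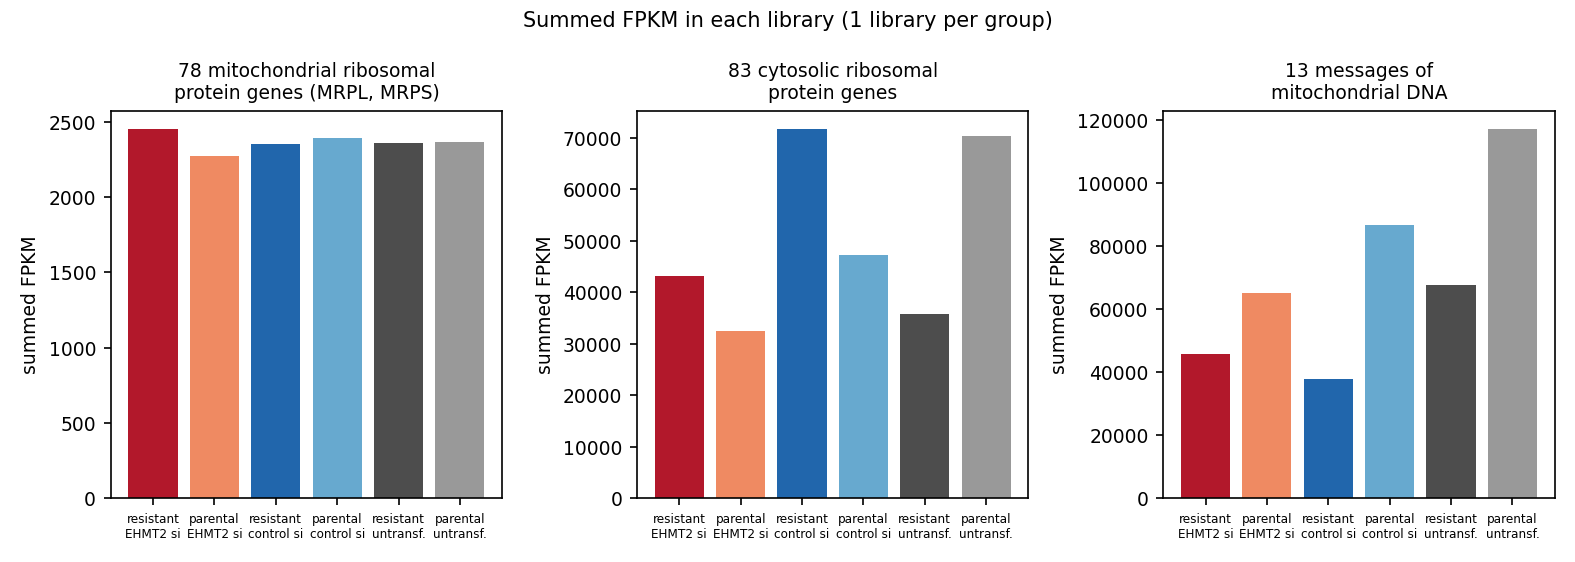
Summed FPKM (vertical axes, from 0) of 3 gene sets in the 6 libraries, 1 bar per library, without rescaling to the same total. The 78 mitochondrial ribosomal protein genes stay between 2275.0 and 2451.1 FPKM, while the cytosolic ribosomal proteins and the mitochondrial DNA messages each range more than 2-fold.

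Single members were steady as well. The ratio of the highest to the lowest of the 6 libraries had a median of 1.54 over the members. It was 1.98 over all 11521 genes that reached 1 FPKM in 3 or more libraries. Over the 7058 gene symbols with a mean FPKM within the members' range it was 1.85. The ratio reached 2 for 10 members, 12.8% of the set, against 48.9% of all genes and 40.8% of genes of like level. A gene without signal in a library was counted as reaching 2 among all genes, but not among those of like level. MRPL53 and MRPL45 had the widest ranges, at 3.90 and 3.70, followed by MRPL16 at 2.73, MRPL10 at 2.62 and MRPL42 at 2.59. MRPL19 and MRPL58, a ribosome-bound peptidyl-tRNA hydrolase, had the narrowest among the members named here, at 1.09 and 1.10. For 34 members the ratio was below 1.5.

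Set against the general shift of expressed genes, the set stood lowest in the knockdown of parental cells. Every ratio below is a log2 ratio of (FPKM + 1), and expressed genes are those that reached 1 FPKM in either library of the pair. With EHMT2 siRNA against control siRNA, the member median was 0.03 in resistant cells, where that of all expressed genes was 0.06, a difference of −0.03. In parental cells it was −0.10, where that of all expressed genes was 0.09, a difference of −0.20. Of the 78 members, 37 in resistant and 25 in parental cells lay above the median of all genes. The sign of the parental member median depends on scaling: after rescaling each library to the same FPKM sum it was 0.02, and its difference from all genes −0.19. For resistant against parental cells, the member median minus that of all genes was −0.05 untransfected, −0.02 with control siRNA and 0.11 with EHMT2 siRNA. The last of these was 0.01 against genes of like exonic length, binned in 10 equal groups. The median exonic length was 1640.5 bases for members and 3632 for expressed genes. For control siRNA against untransfected cells the differences were 0.01 in resistant and −0.03 in parental cells. The other differences depend on length as well. In the shortest length group, with 32 members, the parental knockdown medians were 0.041 for all genes and −0.095 for members. In the next group, with 23 members, they were 0.043 and −0.182. For the lines with control siRNA, the shortest group had medians of 0.099 for all genes and −0.07 for members, and the next 0.021 and −0.085.

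**Figure D2:**
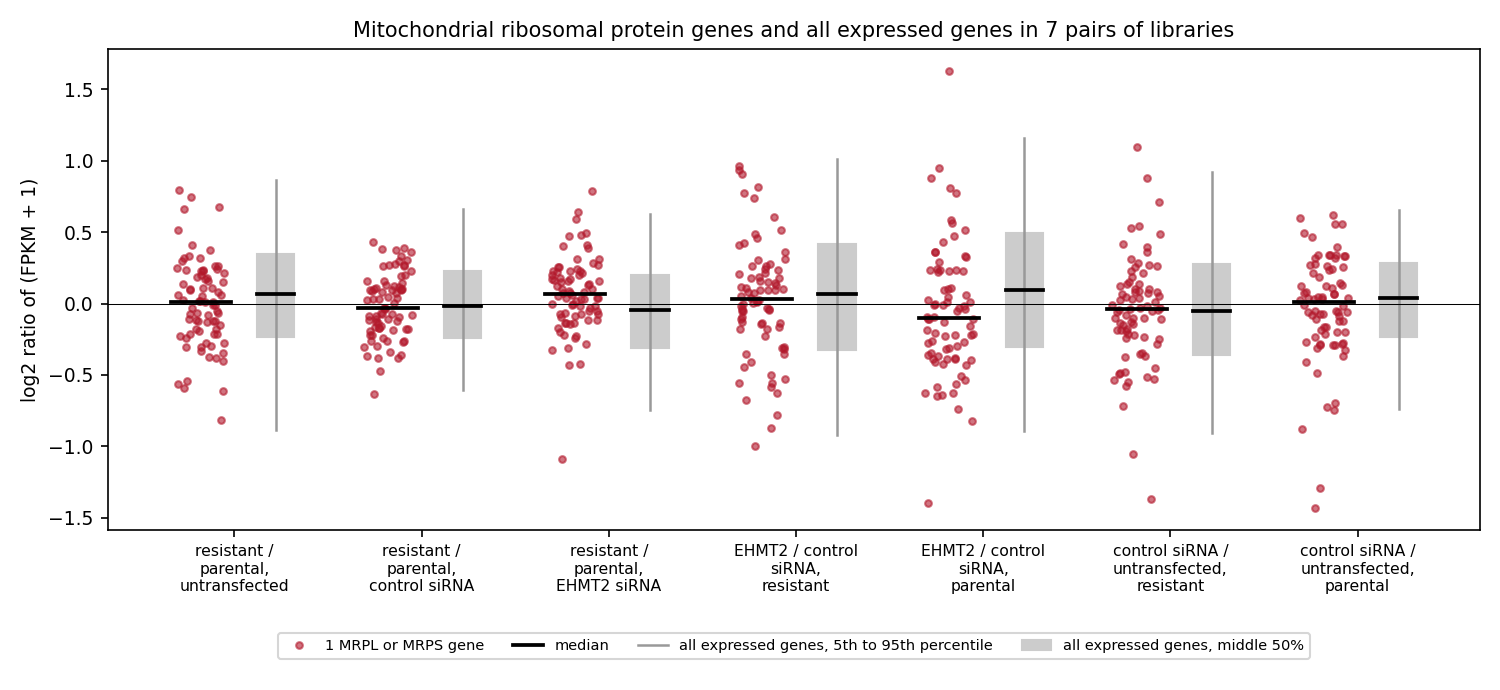
Log2 ratios of (FPKM + 1) of the 78 genes (red points, with their median) in 7 pairs of libraries, beside the median, middle 50% and 5th to 95th percentile of all expressed genes (grey). The members spread less than all genes in every pair, and their median is farthest from that of all genes in the knockdown of parental cells, at −0.10 against 0.09.

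Few members were 2-fold apart between any pair of libraries. With EHMT2 siRNA against control siRNA, none did in resistant cells, where 9.26% of all expressed genes did, and MRPL53 and MRPL16 did in parental cells, where 11% of genes did. The 1.5-fold mark was passed by 13 members in resistant cells (background 29.6%) and by 13 in parental cells (background 33.0%). Resistant and parental cells were 2-fold apart at no member untransfected (background 7.4%), at none with control siRNA (2.56%) and at MRPL53 alone with EHMT2 siRNA (3.09%). At 1.5-fold there were 7 such members untransfected (21.8%), 1 with control siRNA (12%) and 4 with EHMT2 siRNA (15.5%). Control siRNA and untransfected cells were 2-fold apart at MRPL45, MRPL53 and MRPL42 in resistant cells (8.18%) and at MRPL53 and MRPL42 in parental cells (3.03%), and 1.5-fold apart at 6 members in resistant (24.3%) and 8 in parental cells (15.2%).

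With EHMT2 siRNA a small number of members differed alike in both lines, some upwards and some downwards. Higher than with control siRNA by 1.5-fold or more in both lines were MRPL33, MRPL36, MRPS18B and MRPL45, where 12% of all expressed genes were. As much lower in both lines were MRPL16, MRPS26, MRPL3 and MRPL10, where 8.93% of all genes were. By sign alone, 29 members were higher in both lines (46.2% of all genes), 34 were lower in both (36.3%) and 15 went opposite ways. Across the members the ratios of the 2 knockdown pairs, which share no library, had a Pearson correlation of 0.76 (n = 78), against 0.83 across all 11545 expressed genes.

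The additive model of line and treatment was fitted with limma to all 11521 genes, with the interaction as its error term. In the 6-library fit 0 members were called for EHMT2 siRNA after Benjamini-Hochberg adjustment over all genes (0.0% of all genes were called), and 15 had an unadjusted p under 0.05, against 26.6% of all genes. The lowest adjusted p of a member was 0.0529 for MRPL16, with a log2 change of −1.20 (SE 0.18). At an adjusted threshold of 0.1 this fit called 6 members (10.8% of all genes), namely MRPL33, MRPL36 and MRPS18B higher and MRPL16, MRPL3 and MRPS26 lower. In the fit of the 4 siRNA libraries alone, limma with the same adjustment called 25 members, 32.1% of the set, against 42.5% of all genes. It called 12 members higher, 15.4% against 23.8% of all genes, and 13 lower, 16.7% against 18.7%. With all 6 libraries and only genes that reached 5 FPKM in 3 or more libraries, MRPL16 was the 1 member called (3.18% of the 8280 genes tested). The 25 calls thus came with the untransfected libraries left out. Leaving out only 1 of them gave in effect the same fit for EHMT2 siRNA, because the other was then matched exactly by its own treatment effect. The 4-library fit has 1 residual degree of freedom.

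**Figure D3:**
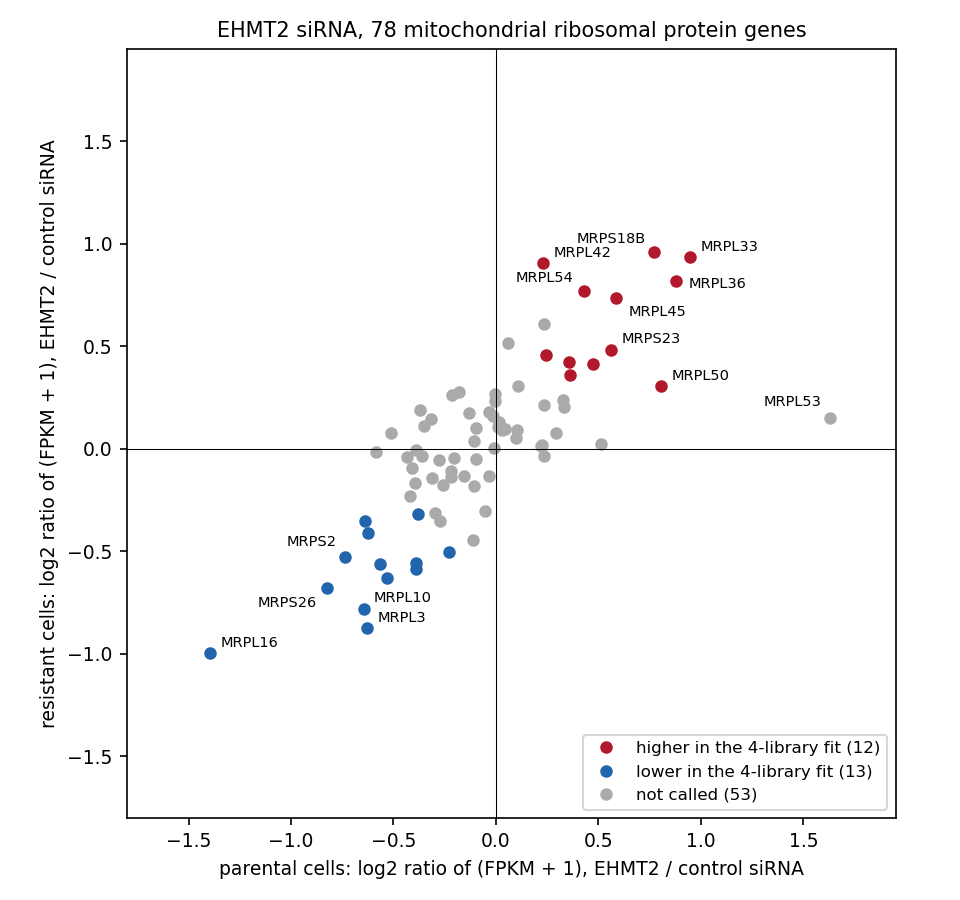
Log2 ratio of (FPKM + 1), EHMT2 siRNA over control siRNA, in resistant cells (vertical) and parental cells (horizontal), 1 point per gene. Red and blue points are the 12 higher and 13 lower members of the 4-library limma fit; MRPL16 lies lowest, and MRPL53 lies at 0.15 in resistant and 1.63 in parental cells.

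Among large-subunit proteins with a bacterial homologue, MRPL16 stood out. Its bacterial counterpart L16 lies near the peptidyl transferase centre. MRPL16 (chr11:59806135-59810872, minus strand, GRCh38) had 16.6 FPKM in resistant and 16.2 FPKM in parental cells with EHMT2 siRNA, 34.1 and 44.3 FPKM with control siRNA, and 32.2 and 35.0 FPKM untransfected. Both EHMT2 siRNA libraries were below the other 4. The log2 ratio was −0.995 in resistant and −1.40 in parental cells, and the 4-library limma fit gave −1.20 (SE 0.14, adjusted p = 0.00159, with a range of 0.00155 to 0.434 over the settings of the fit). MRPL3, whose bacterial counterpart also reaches towards that centre, had 35.3 and 42.0 FPKM with EHMT2 siRNA, 65.6 and 65.4 FPKM with control siRNA, and 58.9 and 63.6 FPKM untransfected. Its 4-library limma change was −0.75 (adjusted p = 0.00408, range 0.00403 to 0.587). MRPL10, the base of the stalk on which MRPL12 sits, had 22.4 and 19.8 FPKM with EHMT2 siRNA, 39.1 and 31.5 FPKM with control siRNA, and 33.6 and 51.8 FPKM untransfected. Its 2 knockdown libraries were again the lowest of the 6, while the other 4 were spread over a wider range than for MRPL16. MRPL4 and MRPL2, core proteins of the large subunit, and MRPL11 and MRPL1, of the stalks, completed the 7 bacterial-type large-subunit members called lower, with log2 changes of −0.56, −0.52, −0.37 and −0.35. The same fit called 18.7% of all genes lower.

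The higher large-subunit members were other proteins. MRPL33 (chr2:27771717-27988087, plus strand, GRCh38) had 102 FPKM in resistant and 84.7 FPKM in parental cells with EHMT2 siRNA, 52.9 and 43.5 FPKM with control siRNA, and 67.7 and 54.0 FPKM untransfected. Both knockdown libraries were above the other 4, and the 4-library limma change was 0.94 (SE 0.11, adjusted p = 0.00162, range 0.00162 to 0.485). MRPL36, homologue of the small zinc-binding protein L36, had 31.4 and 30.1 FPKM with EHMT2 siRNA, 17.4 and 15.9 FPKM with control siRNA, and 29.1 and 27.0 FPKM untransfected. For this gene the control siRNA libraries were the low ones, and the knockdown libraries lay only just above the untransfected ones. MRPL14 was the third bacterial-type member called higher, at 0.44. Of the mitochondria-specific large-subunit proteins, 5 were called higher and 0 lower, where 23.8% and 18.7% of all genes were. MRPL45, which lies at the exit of the peptide tunnel near the inner membrane, had 73.4 and 52.2 FPKM with EHMT2 siRNA, 43.6 and 34.4 FPKM with control siRNA, and 19.8 and 35.7 FPKM untransfected. The other 4 were MRPL54 at 0.60, MRPL42 at 0.57, MRPL50 at 0.56 and MRPL46 at 0.39. Among these only MRPL46 had both knockdown libraries above the other 4 libraries. GENCODE 29 lists 2 pseudogenes named for MRPL45, 4 for MRPL42 and 3 for MRPL50, and reads shared with such copies could move these values. The same limit holds elsewhere, as such pseudogenes are listed for 34 members, among them MRPS17 with 4 and MRPS16 with 3.

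In the small subunit, MRPS26 and MRPS18B were the farthest apart. MRPS26, a mitochondria-specific protein (chr20:3045945-3048254, plus strand, GRCh38), had 19.7 and 20.5 FPKM with EHMT2 siRNA, 32.2 and 37.0 FPKM with control siRNA, and 33.0 and 34.9 FPKM untransfected. Both knockdown libraries were below the other 4, and the 4-library limma change was −0.75 (adjusted p = 0.0037, range 0.00362 to 0.541). MRPS2, MRPS12, MRPS16 and MRPS17, all with bacterial homologues, were called lower with changes of −0.63, −0.58, −0.49 and −0.47. MRPS12 corresponds to bacterial S12 of the decoding centre. MRPS22, which is mitochondria-specific, was called lower at −0.50. MRPS18B had 87.0 and 66.3 FPKM with EHMT2 siRNA, 44.1 and 38.4 FPKM with control siRNA, and 41.7 and 43.8 FPKM untransfected, with both knockdown libraries above the other 4. It is 1 of 3 paralogues of bacterial S18, and neither of the other two was called. MRPS18A had 29.2 and 24.5 FPKM with EHMT2 siRNA against 27.0 and 24.3 FPKM with control siRNA, and MRPS18C 10.5 and 12.4 FPKM against 10.02 and 11.6 FPKM. MRPS18C shares 78.9% of its exonic bases, MRPS18A 56.9% and MRPS17 25.5% with an overlapping gene. MRPS23, MRPS35 and MRPS7 were called higher at 0.52, 0.36 and 0.35. The members whose symbols do not match their place were not called. MRPS30 had 24.96 and 23.98 FPKM with EHMT2 siRNA, 29.5 and 32.4 FPKM with control siRNA, and 29.7 and 33.8 FPKM untransfected. MRPS36 had 11.5 and 9.51 FPKM with EHMT2 siRNA, 10.7 and 8.80 FPKM with control siRNA, and 10.3 and 10.9 FPKM untransfected.

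**Figure D4:**
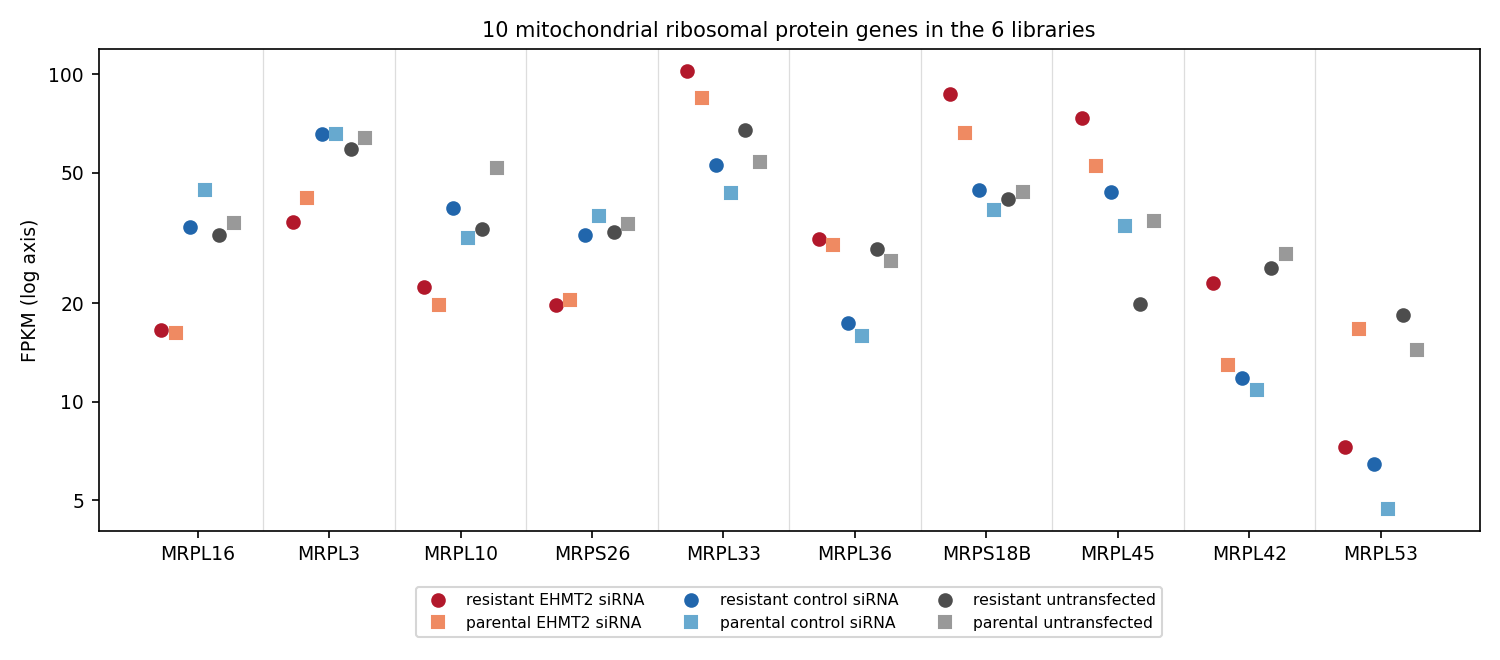
FPKM (log axis) of 10 mitochondrial ribosomal protein genes in the 6 libraries, circles for resistant and squares for parental cells. For MRPL16, MRPL3, MRPL10 and MRPS26 the EHMT2 siRNA libraries (red) lie below all others, for MRPL33, MRPS18B and MRPL45 above all others, and for MRPL36, MRPL42 and MRPL53 the control siRNA library (blue) is the lowest of each line.

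Over the whole set, both knockdown libraries lay above the other 4 for 13 members (24.6% of all genes) and below them for 20 (18%). Of the 12 members called higher by the 4-library fit, 9 were among those 13, and of the 13 called lower, 12 were among those 20. The exceptions were MRPL42, MRPL50 and MRPL54 on the higher side and MRPS22 on the lower side. MRPL42 had 23.0 and 12.9 FPKM with EHMT2 siRNA, 11.8 and 10.9 FPKM with control siRNA, and 25.6 and 28.1 FPKM untransfected, so it was lower with EHMT2 siRNA than without transfection. MRPS22 had 40.3 and 35.5 FPKM with EHMT2 siRNA, 51.7 and 55.9 FPKM with control siRNA, and 42.8 and 35.9 FPKM untransfected. By class, the 46 members with a bacterial homologue gave 4 calls higher and 11 lower, and the 29 mitochondria-specific ones 7 higher and 2 lower, where 23.8% of all genes were called higher and 18.7% lower. In resistant cells the median log2 ratio of EHMT2 siRNA over control siRNA was −0.04 for the 46 members with a bacterial homologue and 0.11 for the 29 mitochondria-specific ones. In parental cells it was −0.23 and −0.01. The difference between these classes was not tested.

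The start regions of 5 of these genes are shown, for 2 members lower with EHMT2 siRNA and 3 higher, because messages of nuclear genes for mitochondria are classically tied to a few promoter elements. GABP binds an ETS-type element, and NRF1 and YY1 bind elements of their own. Each window runs from 250 bases before to 50 after the RefSeq start on GRCh38.p14, in the direction of the gene. Capitals mark matches on either strand to the ETS core CCGGAAG, the NRF1 element (GCGC and TGCGC with any 1 base between them), the YY1 element AAGATGGCG and the E-box CACGTG, the element of MYC. The windows are chr11:59810729-59811028 (minus strand) for MRPL16, chr20:3045802-3046101 (plus strand) for MRPS26, chr2:27771469-27771768 (plus strand) for MRPL33, chr5:1799788-1800087 (minus strand) for MRPL36 and chr15:88467339-88467638 (minus strand) for MRPL46.
MRPL16: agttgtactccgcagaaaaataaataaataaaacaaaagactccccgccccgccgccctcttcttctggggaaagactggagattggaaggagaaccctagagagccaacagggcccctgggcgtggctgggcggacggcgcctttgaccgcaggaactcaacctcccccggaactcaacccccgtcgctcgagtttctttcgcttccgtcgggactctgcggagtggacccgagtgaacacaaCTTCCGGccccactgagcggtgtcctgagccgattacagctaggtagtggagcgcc
MRPS26: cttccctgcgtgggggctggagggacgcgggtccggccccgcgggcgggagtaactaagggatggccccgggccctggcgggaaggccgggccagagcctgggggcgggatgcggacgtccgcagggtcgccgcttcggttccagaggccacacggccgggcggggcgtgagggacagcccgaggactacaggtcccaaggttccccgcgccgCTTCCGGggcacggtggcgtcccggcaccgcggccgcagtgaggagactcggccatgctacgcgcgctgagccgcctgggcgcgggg
MRPL33: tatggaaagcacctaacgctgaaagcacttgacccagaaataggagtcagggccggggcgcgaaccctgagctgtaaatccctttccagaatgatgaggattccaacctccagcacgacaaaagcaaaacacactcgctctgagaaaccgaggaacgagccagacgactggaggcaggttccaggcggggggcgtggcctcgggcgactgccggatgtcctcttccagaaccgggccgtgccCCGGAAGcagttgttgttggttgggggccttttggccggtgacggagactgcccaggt
MRPL36: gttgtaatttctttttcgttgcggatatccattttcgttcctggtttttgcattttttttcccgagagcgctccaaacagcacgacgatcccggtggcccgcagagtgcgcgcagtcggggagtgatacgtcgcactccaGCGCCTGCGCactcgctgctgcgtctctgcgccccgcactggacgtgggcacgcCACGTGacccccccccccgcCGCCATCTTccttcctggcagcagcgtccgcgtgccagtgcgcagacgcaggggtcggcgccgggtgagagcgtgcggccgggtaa
MRPL46: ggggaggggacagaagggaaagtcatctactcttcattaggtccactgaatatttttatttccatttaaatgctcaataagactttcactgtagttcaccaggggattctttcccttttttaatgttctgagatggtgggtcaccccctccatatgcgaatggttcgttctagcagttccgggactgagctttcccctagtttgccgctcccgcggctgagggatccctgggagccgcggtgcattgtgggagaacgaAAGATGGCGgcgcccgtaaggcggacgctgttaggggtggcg

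The ETS core stood near the start of MRPL16 and MRPS26, both lower, and of MRPL33, which was higher. MRPL36 held an NRF1 element, an E-box and a YY1 element, and MRPL46 a YY1 element just after the start. In GENCODE 29 the MRPL36 gene begins at chr5:1801366, upstream of the window shown. RefSeq gave such a window for 69 of the 78 members and for 9662 genes at 1 FPKM or more in any library, taking the most upstream start of each gene. The ETS core was in 29 members, 42.0% against 19.7% of all windows, and the YY1 element in 13, 18.8% against 4.0%. The NRF1 element was in 8 members, 11.6% against 12%, and the E-box in 7, 10.1% against 10.2%. Among the members called by the 4-library fit, the YY1 element was in 5 of 12 higher and 0 of 11 lower ones with a window, and the ETS core in 3 of 12 and 6 of 11. The NRF1 element was in 3 of 12 higher and 0 of 11 lower ones, and the E-box in 2 of 12 and 1 of 11. These elements were chosen with the calls known, their counts carry no test, and a match is a match of letters only.

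Several members share their start region with a neighbour on the other strand. MRPL46 and MRPS11 start 34 bases apart in GENCODE 29, and both were higher with EHMT2 siRNA in both lines. The log2 ratio of MRPL46 was 0.43 in resistant and 0.36 in parental cells, and that of MRPS11 was 0.20 and 0.33. MRPL46 shares 45.3% of its exonic bases with an overlapping gene on the same strand, and MRPS11 14.2% with one on the opposite strand. By its GENCODE 29 start, MRPL36 begins 34 bases from NDUFS6, a subunit of respiratory complex I. The log2 ratio of NDUFS6 was 0.52 in resistant and 0.27 in parental cells. That start lies upstream of the window shown for MRPL36, so the elements marked there do not lie between these starts. MRPL10 starts 93 bases from LRRC46, which was higher, at 0.94 and 1.32, where MRPL10 was lower. LRRC46 was a low gene, at 0.62 to 0.87 FPKM in the libraries without EHMT2 siRNA. Of 13 members with such a partner at 1 FPKM or more, 7 had the sign of their partner in both lines. MRPL46 and MRPS11 are counted from both sides here, and the share among unrelated gene pairs was not taken.

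The lines differed little at these genes. In the 6-library limma fit 0 members were called for resistant against parental cells after Benjamini-Hochberg adjustment (0.0% of all genes), 0 had an unadjusted p under 0.05 (5.23% of all genes), and the lowest adjusted p was 0.941. On simulated data this fit found 6% of the genes changed by 1 on the log2 scale between the lines, and 82% of those changed by 2. The absence of calls therefore says little about changes of 2-fold or less. In the 4-library limma fit 0 members were called where 8.96% of all genes were, and 12, 15.4% of the set, had an unadjusted p under 0.05, against 30.7% of all genes. Across the members, the line ratios with control siRNA and with EHMT2 siRNA correlated at 0.25 (n = 78), against 0.64 across all genes. In all 3 treatments 10 members were higher in resistant cells (14.1% of all genes) and 7 were lower (12.4%), and none was 1.5-fold higher (0.508%) or lower (0.249%) in all 3. MRPL33 was the highest of these by its smallest ratio, with log2 ratios of 0.32 untransfected, 0.28 with control siRNA and 0.27 with EHMT2 siRNA. MRPL17, homologue of bacterial L17, followed with 0.24, 0.27 and 0.59. MRPS31, a mitochondria-specific small-subunit protein, was the lowest, with −0.35, −0.36 and −0.28, and MRPL1 had −0.30, −0.27 and −0.20. The remaining named members were MRPS18A, MRPS15, MRPL36 and MRPS21 on the higher side and MRPS26, MRPL44, MRPL38 and MRPL58 on the lower side, where the smallest ratio of each was at most 0.08 in size.

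Transfection with control siRNA went with lower values of a few members. MRPL53, a mitochondria-specific large-subunit protein, had 7.30 FPKM in resistant and 16.6 FPKM in parental cells with EHMT2 siRNA, 6.48 and 4.71 FPKM with control siRNA, and 18.3 and 14.4 FPKM untransfected. The log2 ratio of control siRNA over untransfected was −1.37 and −1.43. For MRPL42 the same ratio was −1.05 and −1.30, and for MRPL36 −0.72 and −0.73. These were the only 3 members lower by 1.5-fold in both lines (1.48% of all genes), and no member was as much higher in both (0.816%). By sign alone, 18 members were higher in both lines (23.9%), 23 lower in both (23.5%) and 37 opposite. MRPL50 had ratios of −0.58 and −0.49. On the higher side MRPS7, which organises the head of the small subunit, had 0.71 and 0.56, MRPL23 0.42 and 0.60, MRPL47 0.32 and 0.27, and MRPS22 0.27 and 0.62. In the 6-library limma fit 0 members were called (0.0434% of all genes), 5 had an unadjusted p under 0.05 (7.06%), and the lowest adjusted p was 0.7 after Benjamini-Hochberg adjustment. Across the members, the resistant and parental ratios correlated at 0.36 (n = 78), against −0.02 across all genes (n = 11395). MRPL45 went opposite ways, with ratios of 1.10 in resistant and −0.05 in parental cells. Control siRNA and untransfected libraries may differ in more than the transfection, and this cannot be told apart.

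A few members answered EHMT2 siRNA unlike in the 2 lines. The ratio in resistant minus that in parental cells was −1.48 for MRPL53, −0.50 for MRPL50 and −0.49 for MRPS33. It was 0.68 for MRPL42, 0.59 for MRPL35 and 0.57 for MRPL41. MRPL53 had the largest, and its FPKM with EHMT2 siRNA was low in resistant cells alone. With 1 library in a group these differences have no test.

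Other genes of mitochondrial translation were mixed in the same way. The 6-library limma fit called 0 of them for EHMT2 siRNA. The 4-library fit with Benjamini-Hochberg adjustment, which called 42.5% of all genes, called the following. Of 5 mitoribosomal proteins with other names, DAP3, a GTP-binding protein of the small subunit, was higher at a log2 change of 0.60. Of 16 translation factors, 2 were higher and 2 lower. TUFM, the mitochondrial elongation factor Tu, had 101 and 95.6 FPKM with EHMT2 siRNA, 165 and 171 FPKM with control siRNA, and 109 and 145 FPKM untransfected. GFM2, a factor of ribosome recycling, was higher at 0.66. Of 26 assembly factors, 2 were higher and 3 lower. NGRN had 60.2 and 42.1 FPKM with EHMT2 siRNA, 28.8 and 21.3 FPKM with control siRNA, and 24.4 and 28.9 FPKM untransfected. NOA1 and ERAL1, GTPases that assist the assembly of the small subunit, were lower at −0.62 and −0.62. Of 81 cytosolic ribosomal proteins tested, the 4-library fit called 2 higher and 58 lower than with control siRNA, and the 6-library fit 0. The 2 called higher were RPL26L1 and RPS27L. RPS4Y1 is among the 81 but not among the 83 genes that were summed. The sum of those 83 in resistant cells with EHMT2 siRNA, 43097.0 FPKM, was above that of untransfected resistant cells, 35659.6 FPKM. Of the 13 mitochondrial DNA messages 0 were called in either fit.

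Of 12 regulators of mitochondrial biogenesis on the list, 11 were measured, and PPARGC1A was listed at 0. In the 4-library limma fit, after Benjamini-Hochberg adjustment, 4 were called higher and 1 lower, where 42.5% of all genes were called. The 6-library limma fit called 0 of the 11, with adjusted p-values of 0.0989 for MYC, 0.0848 for GABPB1 and 0.179 for YY1. MYC, a transcription factor that binds the E-box, was lower, with 28.6 and 25.1 FPKM with EHMT2 siRNA, 92.2 and 64.1 FPKM with control siRNA, and 68.9 and 143 FPKM untransfected. GABPB1, the partner subunit of GABP, was higher, with 15.2 and 11.8 FPKM with EHMT2 siRNA, 8.48 and 6.50 FPKM with control siRNA, and 8.35 and 5.72 FPKM untransfected. GABPA, the subunit that binds the ETS element, was not called and had 9.67 and 9.16 FPKM with EHMT2 siRNA, 10.7 and 10.7 FPKM with control siRNA, and 9.58 and 10.5 FPKM untransfected. The other regulators called higher were PPARGC1B, TFAM and YY1, at log2 changes of 0.60, 0.47 and 0.43. NRF1 lay between 5.74 and 6.34 FPKM in all 6 libraries.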

How the data were processed

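RNA was taken as total RNA and sequenced after TruSeq v2 library preparation, per the labels' protocols. Per the submitters' processing notes, the tools were HISAT2 2.2.1, StringTie 2.1.1, cutadapt 4.9 and FastQC 0.12.1, with build GRCh38. The annotation release and the strand setting remain not given in the sources used here. FPKM values were deposited by the authors in a table for each library, per the file headers. Tables of 19957 entries were joined by gene, and the entry of highest mean FPKM was kept for repeated symbols. Titles use one name for resistant cells throughout, while a further label writes it differently for the untransfected library than for the transfected ones.

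Ratios are on the log2 scale after adding 1 to each FPKM, which understates changes of low genes. With limma 3.58.1 (R 4.3.3) the sum of a line and a treatment effect was fitted with a trended variance to the 11521 genes that reached 1 FPKM in 3 or more libraries, with Benjamini-Hochberg adjustment over all genes and a threshold of 0.05. On simulated data the 6-library fit called 0 genes when none was changed. With a small part of the genes changed for EHMT2 siRNA, it made 3 false calls. It then found 0% of the genes changed by 1 on the log2 scale and 59% of those changed by 2. In the data 26.6% of genes had an unadjusted p under 0.05 for EHMT2 siRNA in limma, so these shares do not carry over. The 4-library fit was not simulated. Residual degrees of freedom are 2 with 6 libraries and 1 with 4. The p-values measure the spread left by the additive model, not that between replicates.

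Members, lists, promoter elements and tests were chosen with earlier results of these data known. Members are named if they were among the 6 highest or lowest by mean level, by the ratio nearest 0 over the knockdown pairs or over the 3 line pairs, the 4 by the control siRNA pairs, the 3 by the difference between lines, 2-fold apart in a pair, or in a fixed list (the S18 paralogues, MRPS30, MRPS36, MRPL12 and EHMT2). Members called by the 4-library fit were named after their values were seen. Coordinates, exonic bases and overlaps come from GENCODE 29, and start regions from RefSeq (GRCh38.p14). With the start of lowest coordinate in place of the most upstream one, the ETS core was in 28, the NRF1 element in 6, the YY1 element in 13 and the E-box in 9 members. Alternatives were other pseudocounts, filters and scalings, comparison genes of like length or level, no trend, 4 libraries, another threshold, and leaving out each library.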

Additional observations from a re-analysis of the deposited data

Results flagged for a closer look

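For some members the ratio of EHMT2 siRNA over control siRNA had opposite signs in the 2 lines. With 1 library in each group the difference between the lines was not tested. MRPL35 had a log2 ratio of 0.079 in resistant and −0.51 in parental cells. MRPL23 had 0.28 in resistant and −0.18 in parental cells, and MRPS34 had 0.27 and −0.21. MRPS25 had 0.11 in resistant and −0.35 in parental cells. For MRPL19 the ratios were 0.039 and −0.108, and for MRPL51 they were −0.036 and 0.233. The median ratio over all 78 members was 0.031 in resistant and −0.101 in parental cells.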

How the results depend on the processing

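The additive model compares treatments within each line, and so pairs libraries by line. By replicate number, no paired analysis was possible because each group holds 1 library, all with number 1. The number of members called for EHMT2 siRNA was 0 with all 6 libraries, 25 with the 4 siRNA libraries, 1 (MRPL16) with all 6 libraries and a filter of 5 FPKM and 6 at an adjusted threshold of 0.1, and ranged from 0 to 25 when 1 library was left out. Leaving out 1 untransfected library gave in effect the 4-library fit for EHMT2 siRNA, because the other was then matched exactly by its own treatment effect. These settings are therefore not separate checks, and the median member change was −0.019 in each. With any siRNA library left out, none of these calls remained. For control siRNA the count ranged from 0 to 9 when 1 library was left out. It was 1 (MRPL42) without the resistant untransfected library and 9 without the parental one, and the cause was not tested. Each of these fits leaves 1 untransfected library, so the spread among untransfected libraries is unknown and the counts of called members cannot be weighed. Without the resistant untransfected library the median log2 change for control siRNA was −0.036 for members and 0.05 for all genes. Without the parental one it was −0.008 and −0.052. For the lines the count of members called was 0 to 0. The member median minus that of expressed genes in the line pair with EHMT2 siRNA was 0.012 against genes of like length, in place of 0.114. Rescaling to the same FPKM sum moved the member median itself to 0.24 in the untransfected line pair, to 0.02 in the parental knockdown and to 0.19 for control siRNA in parental cells. The corresponding differences from all genes were then −0.04, −0.19 and −0.01. Leaving out the 13 members whose exons overlap another gene by at least 25%, or MRPS36, was chosen after seeing the data; both gave −0.201 for the difference in the parental knockdown and −0.042 in the resistant one. At 1.5-fold in place of 2-fold, 7, 1, 4, 13, 13, 6 and 8 members were apart in the 7 pairs, in the order of the ratio plot. No called value changed direction under the alternatives run. Where leaving out a library left a treatment with 1 library, that library was assumed to vary like the others. Depth is unknown, so counting error, which weighs most on the members with few FPKM such as MRPL50, could not be given.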
